A study of Mus musculus with 9 samples.

Results

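Lmo1 encodes a LIM-domain-only protein, a nuclear adaptor, and its RNA was 8.18-fold more abundant in B16-F10 melanomas of the HDC-S line than in those of the HDC-M line. It is described here together with its relatives Lmo2 and Lmo4 and with Ldb1 and Ldb2, the LIM-domain-binding proteins that join LMO proteins into complexes. These 5 genes, of 16877 named genes on the array, were measured by 7 probes. Lmo1 was chosen by the measured values themselves, as the strongest change between HDC-S and HDC-M tumours, and the other 4 genes were chosen as its relatives and partners. Its difference between those groups is therefore a description and carries no test.

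B16-F10 is a mouse melanoma line, of which 3 variants were made by changing L-histidine decarboxylase, or HDC, which produces histamine from histidine. HDC-A cells have a diminished, HDC-M cells an unmodified and HDC-S cells an enhanced capacity to make and secrete histamine. RNA of 6 tumours per group was pooled at random, 2 tumours per pool, which gave 3 pools and 3 arrays per group. On every array the tumour pool carried the dye Cy5 and a common reference, RNA of HDC-M cells grown in culture, carried Cy3, with no dye swap. All groups share the parental line, and each group came from 1 line variant, so a property of that variant and its histamine capacity cannot be told apart. The construct that changes HDC, the host strain and the age of the tumours are not given in the sources used here.

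LMO proteins consist of little more than a pair of zinc-binding LIM domains and have no DNA-binding domain of their own. They bridge DNA-bound factors such as TAL1, E proteins and GATA factors to LDB1, which associates with itself and can bring enhancers and promoters together. LMO1 and LMO2 are known as oncogenes of T-cell leukaemia, and LMO1 also as a susceptibility gene of neuroblastoma, a tumour of neural crest origin. Melanocytes derive from the neural crest too.

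The start region of Lmo1 is shown because Lmo1 is the gene on which the results turn. The array measured RNA and nothing at this region. RefSeq (build GRCm38.p6) has 2 start windows for Lmo1, 3 for Lmo4 and 3 for Ldb1, and Lmo2 and Ldb2 were not matched. The 250 bases before the outermost Lmo1 start are chr7:109175208-109175457 on the minus strand, printed 5′ to 3′ with the start following the last base.
Lmo1: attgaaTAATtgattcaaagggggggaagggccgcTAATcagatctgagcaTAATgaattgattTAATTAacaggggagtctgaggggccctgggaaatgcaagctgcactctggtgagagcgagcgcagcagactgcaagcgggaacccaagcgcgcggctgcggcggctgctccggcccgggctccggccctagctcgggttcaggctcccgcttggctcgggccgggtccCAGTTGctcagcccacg
Capitals mark matches to CANNTG, the E-box core read by TAL1 and E proteins, and to TAAT on either strand, the core read by LIM-homeodomain proteins. The motif letters were chosen with the sequence in view. CANNTG occurs once, 17 bases upstream of the start, and TAAT occurs 5 times, from 184 to 244 bases upstream, the 2 nearest matches overlapping. GATA, searched on both strands, does not occur in this window. Of 32851 RefSeq windows of the same length, 66.2% hold CANNTG, 54.9% hold TAAT and 53.6% hold GATA. The far 125 bases have 47.2% G and C and the near 125 bases 75.2%. A match is a description of letters and not a binding site.

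The precision of all values is limited by 3 arrays per group. Between 58.0% and 69.7% of probe spots per array were well above background in Cy5. Log2 ratios over all probes of 2 arrays of a group correlated at 0.896 to 0.949, and those of 2 arrays of different groups at 0.859 to 0.920 (Pearson's r). Replicates 1 and 2 of every group were scanned on 1 day and replicate 3 of every group on another. The probe of the modified gene, Hdc, was dim, at 1.24 to 1.92 times the negative control median in Cy5 and 0.97 to 1.05 times in Cy3. Its log2 ratio averaged 0.24 ± 0.16 over HDC-A pools, 0.38 ± 0.28 over HDC-M pools and 0.46 ± 0.14 over HDC-S pools (SD, n = 3 each). The adjusted p values of its differences from HDC-M were 0.696 for HDC-A and 0.864 for HDC-S, and this probe neither bears out nor contradicts the labels. Of 10 melanocyte genes 8 were matched on the array, and all 8 were well above background on all 9 arrays.

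Lmo1 was measured by 1 probe (A_52_P331762, chromosome 7), and every value here is a log2 ratio of tumour over cultured HDC-M cells unless another scale is named. The ratios in the 3 HDC-S pools were 2.92, 2.68 and 2.40, a mean of 2.66 ± 0.26 (SD, n = 3). In the HDC-M pools they were -0.19, -0.54 and -0.37, a mean of -0.37 ± 0.17 (n = 3), and in the HDC-A pools 0.52, 0.31 and -0.11, a mean of 0.24 ± 0.32 (n = 3). All HDC-S pools lay far above every other pool, all HDC-M pools lay below 0, and the lowest HDC-A pool lay just above the highest HDC-M pool. In bulk tumour RNA, more cells that express a gene and more RNA per cell cannot be told apart.

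**Figure D1:**
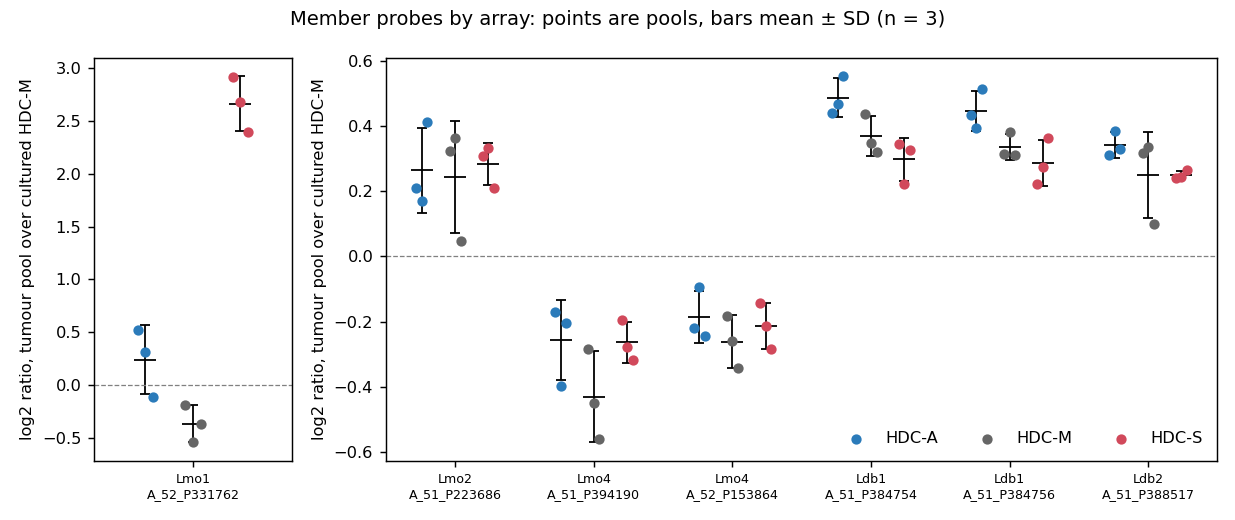
Log2 ratio of tumour pool over cultured HDC-M cells for each probe of the 5 genes, 1 point per pool, with the mean and SD of 3 pools in each group. Lmo1, on its own axis, reaches 2.40 to 2.92 in HDC-S pools, while the ratios of the other 4 genes all lie between -0.56 and 0.55.

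The difference of HDC-S minus HDC-M for Lmo1 was 3.03 on the log2 scale (SE 0.18, 95% interval 2.63 to 3.43). It ranked first in size among the 26871 probes kept. HDC-S minus HDC-A was 2.43 (interval 2.03 to 2.82) and ranked 2 in size. Both rest on the HDC-S pools that chose the gene and are given as a description. Within the first scan day, with 2 arrays per group, HDC-S minus HDC-M was 3.17, and within the second, with 1 array per group, it was 2.76.

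The spot signals of the 2 dyes were set against the negative controls of the same array. In Cy5, the tumour channel, the Lmo1 spot was 24.7, 18.3 and 16.3 times the median of the negative controls on the HDC-S arrays. It was 4.03, 3.16 and 2.61 times that median on the HDC-A arrays and 2.43, 2.17 and 2.18 times on the HDC-M arrays. In Cy3, the cultured reference, it stayed between 1.51 and 1.72 times the negative control median on all 9 arrays, above the negative controls' 95th percentile on each. The Cy5 spot was well above background and not saturated on all 9 arrays. The difference of HDC-S minus HDC-M was 2.79 without background correction and 3.92 with the deposited log ratios of the scanner software.

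**Figure D2:**
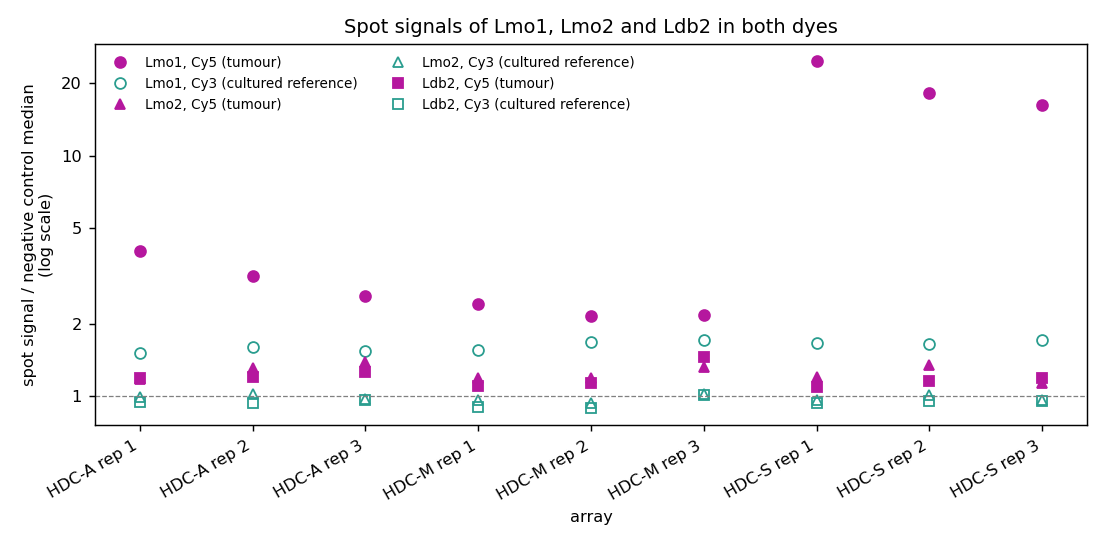
Spot signals of Lmo1, Lmo2 and Ldb2 on each array as multiples of that array's negative control median, on a log scale, with filled symbols for Cy5 (tumour) and open symbols for Cy3 (cultured reference). Lmo1 stands at 16.3 to 24.7 in Cy5 on HDC-S arrays and at 1.51 to 1.72 in Cy3 throughout, and the Cy3 spots of Lmo2 and Ldb2 lie at the negative control level.

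Whether Lmo1 also differed when histamine capacity was lowered is a contrast that the choice of Lmo1 did not use, although it shares the HDC-M arrays, whose low values favoured that choice. HDC-A minus HDC-M was 0.61 (SE 0.18, 95% interval 0.21 to 1.01), a 1.52-fold difference. The adjusted p over all probes was 0.129, so the difference did not pass the threshold of 0.05. The groups did not overlap, and the exact two-sided permutation test gave p = 0.1, the smallest value that 3 against 3 arrays allow. Over all probes, the groups of this comparison did not overlap for 20.1%. The difference was 0.78 within the first scan day and 0.25 within the second.

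Lmo2, best known as the bridge in haematopoietic TAL1 complexes, has 1 probe (A_51_P223686, chromosome 2). Its ratios were 0.21, 0.17 and 0.41 in HDC-A, 0.32, 0.36 and 0.05 in HDC-M and 0.31, 0.33 and 0.21 in HDC-S pools. The groups overlapped throughout. The spot was dim, at 1.13 to 1.39 times the negative control median in Cy5, and its Cy3 signal did not exceed the negative controls' 95th percentile on any array. Its ratio over culture therefore has background in the denominator.

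Lmo4, the member of the family that most tissues express, has 2 probes on chromosome 3. The ratios of A_51_P394190 were -0.17, -0.40 and -0.21 in HDC-A, -0.28, -0.45 and -0.56 in HDC-M and -0.20, -0.28 and -0.32 in HDC-S pools. Those of A_52_P153864 were -0.22, -0.094 and -0.24 in HDC-A, -0.18, -0.26 and -0.34 in HDC-M and -0.14, -0.21 and -0.28 in HDC-S pools. After loess every pool was below the cultured cells on both probes, a direction that turned for HDC-M under median centring, and the groups overlapped in each comparison. The spot of A_51_P394190 was 20.6 to 37.8 times the negative control median in Cy5 and 10.3 to 18.6 times in Cy3, far from the background that limits Lmo2. A_52_P153864 was dimmer, at 1.66 to 3.09 times in Cy5.

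Ldb1, the self-associating scaffold to which LMO proteins bind, has 2 probes on chromosome 19. The ratios of A_51_P384754 were 0.44, 0.47 and 0.55 in HDC-A, 0.44, 0.35 and 0.32 in HDC-M and 0.35, 0.22 and 0.33 in HDC-S pools. Those of A_51_P384756 were 0.43, 0.39 and 0.51 in HDC-A, 0.31, 0.38 and 0.31 in HDC-M and 0.22, 0.27 and 0.36 in HDC-S pools. On both probes every HDC-A pool lay above every pool of the other 2 groups, by little. Over the 9 arrays the 2 probes correlated with each other at r = 0.75, and each with Lmo1 at r of -0.56 and -0.55, values that share a Cy3 reference and are given as a description.

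Ldb2, a close relative of Ldb1, has 1 probe (A_51_P388517, chromosome 5). Its ratios were 0.31, 0.39 and 0.33 in HDC-A, 0.32, 0.34 and 0.099 in HDC-M and 0.24, 0.24 and 0.27 in HDC-S pools. The HDC-M pools overlapped both other groups. Its spot was well above background in Cy5 on 7 of 9 arrays, at 1.09 to 1.46 times the negative control median, and its Cy3 signal was at the negative control level on all arrays.

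Set against HDC-M, raised histamine capacity went with a large Lmo1 difference and with small values for the other 6 probes. With limma, 1 of 7 probes, Lmo1, passed in HDC-S minus HDC-M, where 0.681% of all probes passed, and nothing is read from that count because the contrast chose Lmo1. The other 6 probes had adjusted p values from 0.426 to 0.997, and their groups overlapped. The interval was -0.18 to 0.26 for Lmo2, -0.03 to 0.36 for Lmo4 on its brighter probe, -0.21 to 0.07 for Ldb1 on A_51_P384754 and -0.16 to 0.16 for Ldb2. With 3 arrays per group, the data do not exclude differences inside these intervals. The intervals are not detection limits, and differences beyond them could also have missed the threshold. In Cy5 the Lmo2 spot was 1.13 to 1.39 and the Ldb2 spot 1.09 to 1.46 times the negative control median. The processing understates differences of such dim spots, so the intervals of these 2 genes tell less than that of Lmo4. The median difference of the 7 probes was 0.04 and that of all probes 0.01.

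In HDC-A minus HDC-M, 0 of 7 probes passed, against 1.44% of all probes. By limma 1 of the 7, Lmo1, had an unadjusted p under 0.05, as did 15.4% of all probes. All 7 differences, from 5 genes, were above 0, as were 51.9% of all probes. Their median, with Lmo1 included, was 0.11, against 0.01 for all probes. The choice of Lmo1 favoured low HDC-M values, so its p, its sign and its part in the median are given as a description. Ldb1 was higher by 0.12 on A_51_P384754 and by 0.11 on A_51_P384756, with adjusted p of 0.415 and 0.433. The groups did not overlap on either probe, as for 20.1% of all probes, and both exact permutation tests gave p = 0.1. Lmo4 differed by 0.17 and 0.08, Ldb2 by 0.09 and Lmo2 by 0.02, all with overlapping groups. The positive sign of the Lmo4, Ldb1 and Ldb2 values turned under median centring in place of loess, a setting that moved the median of all probes by -0.11.

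In HDC-S minus HDC-A, 1 of 7 probes, Lmo1, passed, where 5.25% of all probes passed. Nothing is read from that count, because the contrast uses the HDC-S arrays that chose Lmo1. Ldb1 differed by -0.19 (95% interval -0.33 to -0.05, adjusted p 0.124) on A_51_P384754 and by -0.16 (-0.30 to -0.02, adjusted p 0.182) on A_51_P384756. Neither probe passed, although the groups did not overlap on either. The Ldb2 groups did not overlap either, with a difference of -0.09 and an adjusted p of 0.559. In this comparison 23.8% of all probes had groups that did not overlap. The 3 comparisons share arrays, so their values for a gene are not independent of each other.

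**Figure D3:**
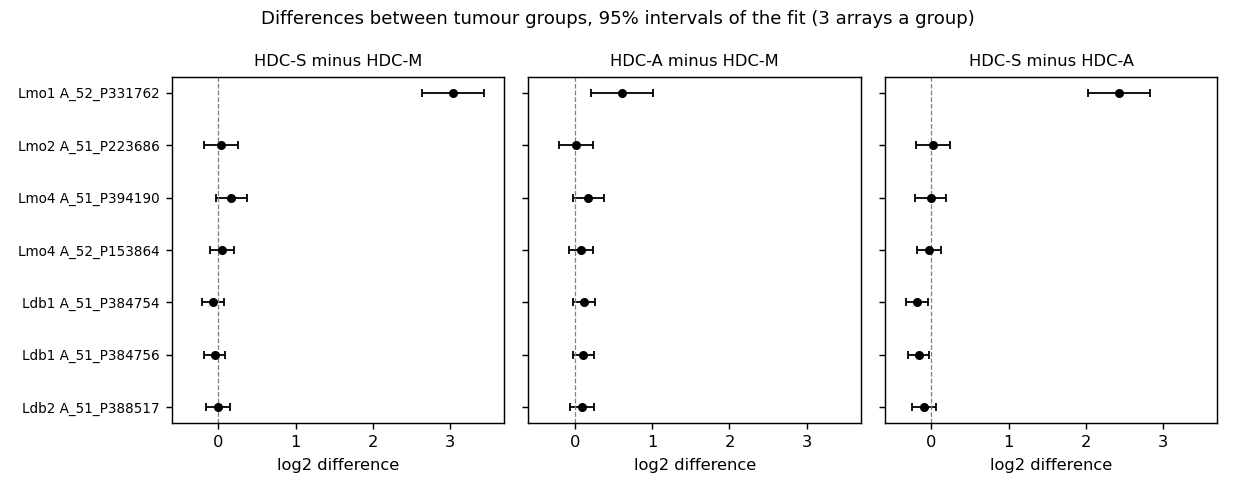
Log2 difference of each probe in HDC-S minus HDC-M, HDC-A minus HDC-M and HDC-S minus HDC-A, with the 95% interval of the fit over 9 arrays. Lmo1 stands at 3.03, 0.61 and 2.43, and the other probes lie between -0.19 and 0.17.

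Against the cultured cells of the same line, HDC-M tumours had more Ldb1 RNA and, with loess but not with median centring, less Lmo4 RNA. All 7 probes passed this test, as did 57.9% of all probes, so passing is common here and nothing is read from the count. Lmo4 was lower by a log2 ratio of -0.43 (adjusted p 0.0003) on A_51_P394190 and of -0.26 (adjusted p 0.0014) on A_52_P153864. Ldb1 was higher by 0.37 and 0.34 (adjusted p 0.0001 for both). The Ldb2 and Lmo2 ratios, 0.25 and 0.24, stand over a Cy3 signal at the negative control level, so no size is read from them. Over the alternatives other than left-out arrays they ran from 0.20 to 2.49 and from 0.11 to 1.26. Lmo1, at -0.37 (SE 0.13), is given as a description, since its choice favoured low HDC-M values and this comparison uses the same arrays. For scale, 10334 probes that were never well above background in Cy5 had a median of -0.05 in HDC-M pools, with 5th and 95th percentiles of -0.17 and 0.06.

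The reference is 1 culture sample, so this test leaves out the spread of the culture, and without a dye swap a dye effect cannot be told apart from the tumour. Lmo2 no longer passed when HDC-M replicate 1 (0.21, adjusted p 0.0873) or replicate 2 (0.19, adjusted p 0.101) was left out, or under median centring (0.11, adjusted p 0.213). Under median centring the signs turned to 0.094 for Lmo1 and to 0.37 and 0.20 for the Lmo4 probes, while that setting moved the median of all probes by 0.22. Ldb1 and Ldb2 passed under median centring too. So did Lmo4 on A_52_P153864 (adjusted p 0.0415), but in the direction opposite to that with loess, while A_51_P394190 did not pass (adjusted p 0.0882).

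The genes beside Lmo1 on chromosome 7 had small differences, and several of their spots were dim. Among the 10 nearest measured genes on each side in RefSeq order, the differences of HDC-S minus HDC-M ran from -0.17 to 0.20, with a median of 0.04, against 3.03 for Lmo1. By limma, 0 of these 20 genes passed in HDC-S minus HDC-M and 0 in HDC-A minus HDC-M, with 3 under an unadjusted p of 0.05 in each. Over all probes 14.5% and 15.4% were under that p, so a count of 3 in 20 is near the background. The nearest measured genes are Tub on one side, at 0.05 in HDC-S minus HDC-M, and Trim66 on the other, at 0.18. Tub, Olfr502 and Olfr518 were well above background in Cy5 on 3 of 9 arrays, and Olfr494, Olfr497, Olfr507 and Scube2 on 4. The processing understates differences of dim probes, so nothing is read from the small values of these genes. In HDC-S minus HDC-A 1 neighbour passed, Eif3f, a subunit of translation initiation factor eIF3, with a difference of 0.38 (adjusted p 0.0319). That call held in 3 of 9 fits that left out 1 array (not without HDC-A replicate 1 or 2, HDC-M replicate 2 or any HDC-S replicate), with differences from 0.31 to 0.43 and adjusted p from 0.0371 to 0.103.

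**Figure D4:**
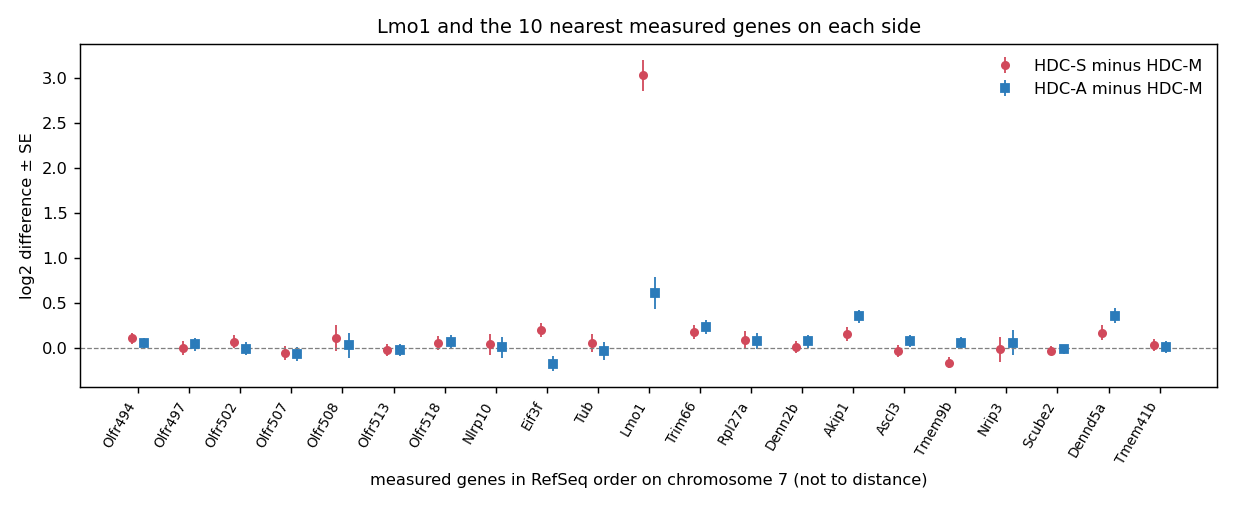
Log2 difference ± SE of Lmo1 and of the 10 nearest measured genes on each side in chromosome order, for HDC-S minus HDC-M and HDC-A minus HDC-M, drawn by rank and not by distance. Lmo1 stands alone at 3.03, and its neighbours, several of them dim, lie between -0.18 and 0.36.

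Among 17 measured genes of the 22 listed as partners of LMO and LDB proteins, the 3 measured members of the SSBP family were the ones that passed in any comparison of tumours. SSBP proteins bind LDB1 and protect it from degradation. The other 14, which include Tal1, Lyl1, Gata1, Gata2, Gata3, the E protein genes Tcf3, Tcf4 and Tcf12, and Rlim, whose product marks LDB1 for degradation, did not pass. Of all probes 0.681% passed in HDC-S minus HDC-M, 1.44% in HDC-A minus HDC-M and 5.25% in HDC-S minus HDC-A. Tal2, Bex2, Nhlh1 and Nhlh2 were not bright enough to be kept, and Kdm5a was not matched by name.

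Ssbp4 was higher and Ssbp3 lower in HDC-S tumours. Ssbp4 had ratios of 2.21, 1.99 and 2.25 in HDC-S, 1.59, 1.62 and 1.61 in HDC-M and 1.74, 1.49 and 1.80 in HDC-A pools. It rose by 0.55 against HDC-M (SE 0.10, adjusted p 0.0465) and by 0.47 against HDC-A (adjusted p 0.0250), with all HDC-S pools above all others. Over all probes, groups did not overlap for 21.6% in HDC-S minus HDC-M and 23.8% in HDC-S minus HDC-A. Ssbp3 had ratios of -1.21, -1.11 and -1.26 in HDC-S, -0.56, -0.75 and -0.83 in HDC-M and -0.60, -0.62 and -0.72 in HDC-A pools. It differed by -0.48 from HDC-M (SE 0.08, adjusted p 0.0398) and by -0.55 from HDC-A (adjusted p 0.00823), again without overlap. A second Ssbp3 probe (A_52_P627863) gave -0.12 (adjusted p 0.461) against HDC-M and 0.06 (adjusted p 0.732) against HDC-A, so the probes of this gene disagree.

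Ssbp2 set the HDC-A tumours apart. Its ratios were 0.22, 0.24 and 0.15 in HDC-A, -0.19, -0.15 and -0.07 in HDC-M and -0.08, -0.12 and -0.28 in HDC-S pools. It was higher by 0.34 in HDC-A than in HDC-M (adjusted p 0.0493), and HDC-S minus HDC-A was -0.37 (adjusted p 0.0191). Its second probe (A_52_P522977) gave -0.03 (adjusted p 0.883) and 0.01 (adjusted p 0.970) in those comparisons, so here too the probes disagree.

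The SSBP calls lie near the threshold. Of 9 fits that each left out 1 array, Ssbp4 against HDC-M passed in 1 (without HDC-A replicate 2) and Ssbp3 against HDC-M in 2 (without HDC-A replicate 2 or HDC-M replicate 3), with adjusted p up to 0.174 and 0.165. Ssbp2 in HDC-A minus HDC-M passed in 0 of 9, with adjusted p from 0.0524 to 0.173. In HDC-S minus HDC-A, Ssbp3 passed in 9 of 9 fits, Ssbp4 in 5 (not without HDC-A replicate 1 or 2 or HDC-S replicate 1 or 3) and Ssbp2 in 5 (not without HDC-A replicate 1 or 2 or HDC-S replicate 2 or 3). Over 12 other settings, Ssbp4 and Ssbp3 against HDC-M held in 2 and 3, and Ssbp2 in HDC-A minus HDC-M in 4. In HDC-S minus HDC-A Ssbp3 held in 8, Ssbp4 in 6 and Ssbp2 in 7. That Ssbp3 call was lost under median centring, scaling between arrays, Cy5 alone and the first scan day alone. Scaling the arrays to a common spread reduced Ssbp4 against HDC-M to 0.04 and Ssbp3 to -0.21. Over the 17 partners the median difference was -0.02 in HDC-S minus HDC-M, 0.07 in HDC-A minus HDC-M and -0.17 in HDC-S minus HDC-A.

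**Figure D5:**
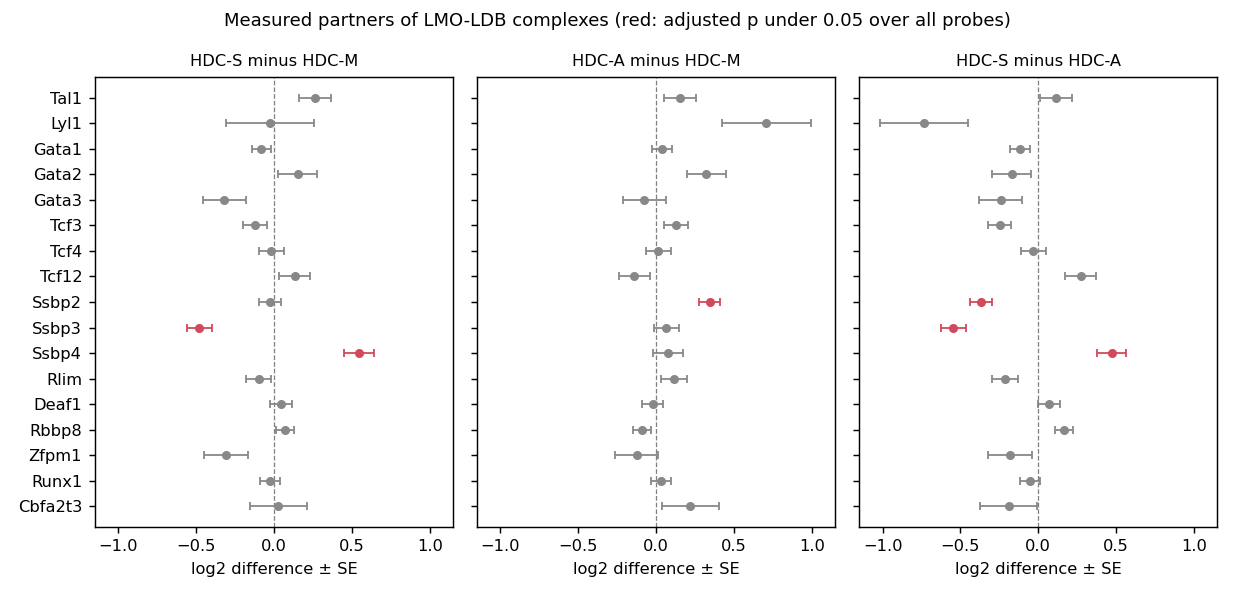
Log2 difference ± SE of the 17 measured partner genes in the 3 comparisons of tumours, with genes whose adjusted p over all probes was under 0.05 in red. The SSBP genes are the only red points, with Ssbp4 at 0.55 and Ssbp3 at -0.48 in HDC-S minus HDC-M.

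Of 14 genes listed as targets of TAL1, LMO and LDB1 complexes 8 were measured, and Kit was the one that passed, in HDC-S minus HDC-M and HDC-A minus HDC-M, where 0.681% and 1.44% of all probes passed. Kit encodes the receptor for stem cell factor and is needed by melanocytes. Its ratios were 1.18, 1.23 and 1.16 in HDC-S, 0.86, 0.82 and 1.03 in HDC-A and 0.54, 0.57 and 0.28 in HDC-M pools. Kit rose by 0.73 in HDC-S (SE 0.09, adjusted p 0.0192) and by 0.44 in HDC-A (SE 0.09, adjusted p 0.0493) against HDC-M, without overlap, as for 21.6% and 20.1% of all probes. The first call held in 4 of 9 fits with 1 array left out (not without any HDC-S replicate or HDC-M replicate 1 or 2, adjusted p up to 0.0824) and the second in 0 of 9 (adjusted p from 0.0694 to 0.136). Over 12 other settings the calls held in 6 and in 2. Both were lost without background correction (0.35, adjusted p 0.0547, and 0.15, adjusted p 0.378) and with the value table (1.46, adjusted p 0.532, and 0.52, adjusted p 0.837). The erythroid targets Klf1, Epb42, Nfe2 and Gfi1b were too dim to be kept, and Alas2, which was kept, differed by 0.08 (adjusted p 0.887) in HDC-S.

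Other small LIM genes passed once, in HDC-A minus HDC-M, where 1.44% of all probes passed. Of 12 listed LMO, FHL, CSRP and CRIP genes 10 were measured and Lmo3 and Fhl5 were too dim. Crip2, a small LIM-only protein, had ratios of 0.36, 0.35 and 0.28 in HDC-A, 0.07, -0.13 and -0.14 in HDC-M and 0.07, 0.19 and 0.15 in HDC-S pools. It was higher by 0.40 in HDC-A than in HDC-M (adjusted p 0.0370), but passed in 0 of 9 fits with 1 array left out (adjusted p from 0.0533 to 0.161) and turned to -0.061 under median centring. In HDC-A minus HDC-M the next smallest p belonged to Fhl1, at 1.73 (SE 0.62, adjusted p 0.210), and in HDC-S minus HDC-A the smallest belonged to Csrp1, at 0.35 (adjusted p 0.0730). Of 12 LIM-homeodomain genes, which also bind LDB1, 5 were measured and 0 passed between tumours by limma. The share of all probes passing was 0.681% in HDC-S minus HDC-M, 1.44% in HDC-A minus HDC-M and 5.25% in HDC-S minus HDC-A. A count of 0 in 5 is near those shares. In HDC-S minus HDC-M 14.5% of all probes were under an unadjusted p of 0.05, and so was 1 gene of this list. That gene, Lhx2, had the smallest p of that list in HDC-S minus HDC-M, at -0.37 (adjusted p 0.161), and was well above background on 5 of 9 arrays.

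The sympathoadrenal list holds regulators of the cells from which neuroblastoma arises. Of its 14 genes 6 were measured, and Hand1, Hand2, Mycn, Th, Alk, Insm1 and Isl1 were among those too dim to be kept. Prph, which encodes the intermediate filament peripherin, had ratios of 1.12, 1.49 and 2.14 in HDC-S, 0.62, 0.84 and 0.11 in HDC-M and 0.21, 0.46 and 0.73 in HDC-A pools. It rose by 1.12 in HDC-S against HDC-A (SE 0.26, adjusted p 0.0434), a comparison in which 5.25% of all probes passed. Against HDC-M it differed by 1.06 (adjusted p 0.113). The call held in 2 of 9 fits with 1 array left out (without HDC-S replicate 1 or HDC-M replicate 3), with differences from 0.84 to 1.35. Phox2a, Dbh, Ret and Sox11 differed by -0.08 to 0.03 in the comparisons with HDC-S, and none passed. Phox2a and Ret were well above background in Cy5 on 3 of 9 arrays and Dbh on 7, so little is read from their small differences.

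Markers of other cells moved with the groups as follows, and their part in the values above was not tested. Of 9 measured keratinocyte markers 0 were above 0 in HDC-S minus HDC-M, against 53.2% of all probes, and their median was -1.42. Their mean ratio was 0.09 to 1.27 in HDC-S pools, 1.70 to 2.74 in HDC-M and 1.16 to 2.39 in HDC-A. Krt14 had a value on only 1 HDC-M array (3.96), and Sfn had none in HDC-A replicate 2 and HDC-S replicate 3. The markers behind these means therefore differ between pools. By limma 0 passed, with 6 under an unadjusted p of 0.05 in HDC-S minus HDC-M, as were 14.5% of all probes. All 10 macrophage markers were above 0 in HDC-S minus HDC-M, with a median of 0.34, and 0 passed, at either p. Endothelial cells are known to express Lmo2 and Ldb2, and the mean ratio of 12 endothelial markers was 1.00 to 1.56 in HDC-A, 0.76 to 1.26 in HDC-M and 0.96 to 1.04 in HDC-S pools, and 0 passed between tumours. Of 10 neuron markers 3 were kept and Snap25, Gap43, Elavl4, Nefl, Nefm and Rbfox3 were too dim. In the other lists 0 of 3 erythroid, 0 of 6 T cell and 0 of 8 fibroblast markers passed. Among all probes 0.681% passed in HDC-S minus HDC-M, 1.44% in HDC-A minus HDC-M and 5.25% in HDC-S minus HDC-A. A count of 0 in lists this short is near those shares. Among the 8 melanocyte genes Oca2, a melanosome transporter, was lower in HDC-S by a difference of -1.02 from HDC-M (adjusted p 0.0118) and -0.62 from HDC-A (adjusted p 0.0171). Tyr, the pigment enzyme tyrosinase, differed by -0.48 between HDC-S and HDC-A (adjusted p 0.0121). Against HDC-M, on the brightest probe of each gene, 1 of 8 melanocyte genes was above 0 in HDC-S (median -0.12) and 2 of 8 in HDC-A (median -0.26). Of all probes 53.2% and 51.9% were above 0 in these comparisons. The counts depend on the probe chosen. Other Tyrp1 probes gave 0.30 and 0.39 in HDC-S and 0.0022 and 0.13 in HDC-A, and another Mitf probe 0.06 and 0.02. On their brightest probes both genes were below 0. For Dct the other probe went the opposite way, below 0 in both comparisons. In HDC-S minus HDC-A the melanocyte list did not move one way, with 5 of 8 genes above 0 and a median of 0.02. A second probe of the pigment enzyme gene Dct (A_52_P550629) passed the other way there, at 0.81 (adjusted p 0.00234), and was lower in HDC-A than in HDC-M, at -0.88 (adjusted p 0.00406), while the brighter Dct probe, fitted on 8 arrays, differed by 0.0034 (adjusted p 0.995) and 0.12 (adjusted p 0.814). Leaving out 1 array ended the first Oca2 call without HDC-S replicate 1 or HDC-M replicate 1 or 2 (adjusted p up to 0.0692), the second without HDC-A replicate 1 or 3 or HDC-S replicate 3 (up to 0.0556) and the Tyr call without HDC-S replicate 3 (0.0522). Over 12 other settings these calls held in 7, 9 and 10, and the first was lost under median centring (adjusted p 0.175), with the value table (0.0802), with Cy5 alone (0.0653), on the first scan day (0.0763) and with only the groups compared (0.0509).

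The patterns most like each member were ranked by Pearson's r of the log2 ratio over the 9 arrays, among 25751 probes with a value on every array. For Lmo1 they were Dbndd1 (r = 0.984), Rpl23a (0.979), Med31 (0.974), Zfp330 (0.969) and 1810065E05Rik (0.963). Their differences of HDC-S minus HDC-M were 0.53, 0.43, 0.33, 0.55 and 0.51, against 3.03 for Lmo1, so the likeness is one of order and spacing and not of size. For Ldb2 the closest were Fgl2 (0.941), F2r (0.938), Myct1 (0.930), Gimap1 (0.928) and Cited4 (0.925). For Ldb1 they were Ovgp1, Loxl3, Rassf3, Eci3 and Pias3, with r from 0.941 to 0.955. For Lmo4 they were Pcid2, Olfr1495, Pik3r3, Tmbim1 and Olfr1284 (0.937 to 0.951), and for Lmo2 Kctd7, Nrbp1, Mief2, Septin2 and Slain1 (0.915 to 0.932). With 9 arrays and a shared reference these values are a description, and the members' own ranges outside Lmo1 are narrow.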

How the data were processed

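The deposited scanner files hold intensity values, per the file headers the mean signal and median local background of each spot in Cy5 and Cy3, written by Agilent Feature Extraction 8.5.1.1. The deposited log10 ratios of Cy5 over Cy3 in the scanner files are, per the file headers, the scanner software's own, and the authors' value table equals them at all 43790 spots on every array, with column medians from -0.0094 to 0. Other deposited columns, per the file headers, mark spots as well above background, saturated, outlier or control. The genome build of the probes is not given in the sources used here.

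Mean signals were corrected with normexp (offset 50) and normalised by loess within arrays with limma 3.58.1 in R 4.3.3, which understates the fold change of dim probes. Control and outlier spots had weight 0 and were then dropped, repeated spots of a probe were averaged, and probes with Cy5 well above background on at least 3 of 9 arrays were kept (26871 of 41174). Probes were named by RefSeq accession, or else by symbol or synonym in the description. A probe that matched Ldb2 only through the synonym Ldb3 names Ldb3 by accession and was left out. For lists and likeness the brightest kept probe stood for its gene.

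All 9 arrays were fitted in 1 model (lmFit, eBayes) with no block, and p values were adjusted by Benjamini-Hochberg over all probes kept, with a threshold of 0.05. Permutation tests are exact and two-sided over 10 splits. The pools are biological replicates of 2 tumours, per the labels. The members and the gene lists were chosen with earlier results of these data known, and the text names every probe of the members, list genes that pass or have the smallest p, and the 5 genes most like each member. Alternatives were other background corrections, normalisations, filters, blocks and single scan days, the value table, the Cy5 channel alone, only the groups compared, and leaving out each array. Some members of the gene lists are counted but not reported here by name.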

Additional observations from a re-analysis of the deposited data

How the results depend on the processing

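Lmo1 in HDC-S minus HDC-M was 2.76 (second scan day alone) to 3.92 (authors' value table) over the alternatives, with 2.79 without background correction, and 2.90 to 3.17 when 1 array was left out. Lmo1 in HDC-A minus HDC-M missed the threshold under all 21 alternatives (0.47 to 1.06, adjusted p 0.0595 to 0.448), and in HDC-S minus HDC-A it was 2.22 to 2.86. The number of members passing against culture was 4 of 7 under median centring, among them Lmo4 on A_52_P153864 with its sign turned.

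Small differences changed sign, and of those between tumours Crip2 alone had passed the threshold. Without background correction Lmo2 was -0.012 in HDC-S minus HDC-M and -0.017 in HDC-A minus HDC-M, and Ldb2 -0.0086 in the latter. With plain subtraction the last 2 were -0.033 and -0.067. With median centring the Lmo4 probes were -0.27 and -0.098 in HDC-S minus HDC-M. In HDC-A minus HDC-M they were -0.25 and -0.061, Ldb1 -0.19 and -0.15, Ldb2 -0.0034 and Crip2 -0.061, and Lmo2 was -0.017 in HDC-S minus HDC-A. Against culture Lmo1 was 0.094 and the Lmo4 probes 0.37 and 0.20. With scaling between arrays Lmo2 was -0.013 and Ldb1 -0.0052 and -0.0056 in HDC-A minus HDC-M. With the value table Lmo2 was -0.28 and Ldb2 -0.19 in HDC-A minus HDC-M. With Cy5 alone Ldb1 (A_51_P384754) was -0.037 and Ldb2 -0.00028 in HDC-A minus HDC-M, and Lmo2 -0.068 and Lmo4 (A_52_P153864) 0.077 in HDC-S minus HDC-A. On the first scan day Lmo2 was -0.023 in HDC-S minus HDC-M and -0.15 in HDC-A minus HDC-M, and Lmo4 (A_51_P394190) 0.046 in HDC-S minus HDC-A. Leaving out 1 array, Lmo2 ran from -0.059 to 0.099, -0.079 to 0.079 and -0.027 to 0.094 in HDC-S minus HDC-M, HDC-A minus HDC-M and HDC-S minus HDC-A. Ldb2 ran from -0.077 to 0.042 in the first, and the Lmo4 probes from -0.076 to 0.037 and -0.063 to 0.018 in the last. Apart from the smaller sample of single scan days and of left-out arrays, the cause was not tested.

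The counts over all probes, 183, 387 and 1412 in HDC-S minus HDC-M, HDC-A minus HDC-M and HDC-S minus HDC-A, were 5, 2 and 4 with median centring, 39, 54 and 165 with scaling, 7, 18 and 392 with the value table, 10, 190 and 549 with Cy5 alone, 30, 5 and 9 on the first scan day, and 12, 86 and 740 with only the groups compared. The first was 315 without background correction, and the first 2 were 85 and 189 with scan day as a block, which ended the calls of Ssbp4 against HDC-M (adjusted p 0.0584), of Ssbp2 (0.0668), Kit (0.0701) and Crip2 (0.0532) in HDC-A minus HDC-M and of Prph (0.0567). Leaving out 1 array gave 4 to 189, 21 to 218 and 455 to 1389, with the fewest for HDC-S minus HDC-M without HDC-M replicates 1 and 2 (5 and 4) and HDC-S replicates 1, 2 and 3 (13, 7 and 8). Arrays with the same replicate number correlated in their deviations with r from -0.19 to 0.55, and 3 of 9 correlated best with their own number, so the numbers do not pair the pools. A replicate block gave 70, 187 and 1123 probes and left the counts of members passing at 1, 0 and 1. It ended the calls of Ssbp3 and Ssbp4 against HDC-M, of Ssbp2, Kit and Crip2 in HDC-A minus HDC-M and of Prph. Ldb2 has no value when Cy5 must be well above background on all 9 arrays. The dim Cy3 signals of Lmo2 and Ldb2, at the negative control level, limit their ratios over culture. Their dim Cy5 signals limit their differences between tumours.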
